A study of Mus musculus with 10 samples.

Results

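The 10 *Hoxb* genes are the homeobox genes of the mouse Hoxb cluster, *Hoxb1* to *Hoxb9* and *Hoxb13*. They were found on the microarray by the transcript accession given for each probe: 11 of 55681 probes, on 20 spots, belonged to these 10 of 20972 named genes. The probes were found by annotation, but the cluster itself was selected on results of these arrays, with the levels and detection of its genes in the 3 groups already known. The values below therefore describe these arrays, and the tests, run over all probes, are no independent evidence for the cluster. Each gene had 1 probe except *Hoxb3*, which had 2, and the probe with the higher mean signal over the 10 arrays stands for *Hoxb3* unless the other one is named.

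The 10 arrays measured total RNA of E14 mouse embryonic stem (ES) cells, a line grown on gelatin with Lif, a cytokine that holds ES cells in the undifferentiated state. In 4 samples a pool of guide RNA (gRNA) plasmids directed a nuclease-dead Cas9 fused to the activator VP160 (dCas9-VP160) to the promoter of *Hottip*, a long non-coding RNA at the posterior end of the Hoxa cluster, and in 3 samples another pool directed it to the promoter of *Hoxa13*. The 3 control samples are labelled as carrying control gRNA, for which the study's methods name guides without a target and dCas9 alone, so the control may lack the VP160 activator as well as the targeting guides. All 3 groups came from transient transfection with 2 µg/ml puromycin from 24 h on and harvest at 48 h, so each sample is a mixed population of transfected cells rather than a clone.

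Hox genes encode transcription factors that give cells along the body axis their position, and they lie in 4 clusters, Hoxa, Hoxb, Hoxc and Hoxd, in the order in which they act from head to tail. *Hoxb1* stands at the anterior end and is the first to be switched on, for example by retinoic acid, while *Hoxb13* stands at the posterior end, apart from the others. In undifferentiated ES cells the clusters are covered by Polycomb repressive complexes and are largely silent, and caudal homeobox proteins (Cdx) are activators of posterior Hox genes in the embryo. Both guide pools lie in the Hoxa cluster, and the Hoxb cluster is on another chromosome, so whether the Hoxb genes differed between the groups is a question about genes that neither pool was directed to.

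The target sites of the *Hottip* pool show what its guides were built to find. Each is given 5′ to 3′ on its own strand with the adjacent NGG motif that Cas9 requires in capitals, and was located in the RefSeq promoter windows of build GRCm38.p6. The *Hottip* guides lay between 231 and 110 bases before the start of *Hottip*, and 40 to 55% of their bases were G or C.
Hottip guide 1, chr6:52262643-52262665, minus strand: gcagtaagaaggtaaactcgGGG
Hottip guide 2, chr6:52262605-52262627, plus strand: tctcctgactttagcggtccTGG
Hottip guide 3, chr6:52262608-52262630, minus strand: tacccaggaccgctaaagtcAGG
Hottip guide 4, chr6:52262544-52262566, minus strand: ggatcagggaaggttttattGGG
Hottip guide 5, chr6:52262545-52262567, minus strand: gggatcagggaaggttttatTGG

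The 300-base promoter windows of 32851 genes were searched on both strands for sites next to NGG with at most 3 mismatches. The *Hottip* pool had such sites in 2 windows, those of *Hottip* and *Hrnr*. The table held the promoters of 3 members, *Hoxb1*, *Hoxb4* and *Hoxb8*. Their closest sites to a guide of that pool had 8 mismatches for *Hoxb1* and 9 for both *Hoxb4* and *Hoxb8*. These counts describe the windows searched and no other sequence.

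The signal of the spots was background-subtracted by the scanner software and is given as a level, the log2 signal minus the 75th percentile of that array, so that 0 is the 75th percentile and 1 unit is a 2-fold step. A spot was detected when the software marked it well above background, and a probe when more than 50% of its spots were. Spots that were not significant against background carry a substitute value set by the error of the array, which is not a measurement: on *Hottip* gRNA replicate 4 such spots read about -5.01, and on replicate 3 about -4.54. Over 10835 probes that were significant on no array, the difference between *Hottip* gRNAs and control had a median of 0.52 (5th to 95th percentile 0.32 to 0.73). A positive difference of this size is what a probe of that kind gives. The test was limma's moderated test over 22839 probes detected on at least 3 of the 10 arrays, with all 3 groups in the fit and Benjamini-Hochberg adjustment, and a gene was called at an adjusted p under 0.05.

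As a check of the labels, *Hoxa13*, the posterior Hoxa gene next to *Hottip*, stood between 3.17 and 4.16 on the 4 *Hottip* gRNA arrays and between -5.84 and -3.46 on the control arrays, at least 144-fold higher (limma adjusted p = 0.000111). On the 3 arrays labelled *Hoxa13* gRNAs it stood between -4.80 and -3.68 and was well above background on none, a difference of 0.50 from control with a standard error (SE) of 0.59 that was not called (limma adjusted p = 0.725). Here the measurement did not bear out the label, and directions drawn from these arrays are those of arrays so labelled. The 8 embryonic stem cell markers, among them *Pou5f1* and *Nanog*, were well above background on all 10 arrays. The share of spots well above background lay between 32.9 and 42.5% per array, and outlier spots, which were left out of the fit, between 0.312 and 7.28%. *Hoxa13* gRNA replicates 1 and 2 lay on 1 slide and the other 8 arrays on another.

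The Hoxb genes were close to undetected in control ES cells, and by the well-above-background flag the *Hottip* gRNA arrays had the most detected members. No member was well above background on all 3 control arrays and 1 was on at least 1 of them, *Hoxb13*. On the *Hottip* gRNA arrays 2 members, *Hoxb9* and *Hoxb13*, were detected on all 4, and 5 on at least 1, adding *Hoxb3*, *Hoxb4* and *Hoxb7*. On the arrays labelled *Hoxa13* gRNAs no member was detected on all 3, and 2 were on at least 1, *Hoxb4* and *Hoxb9*. These counts include outlier spots, which were left out of levels and tests. Such were the spots of *Hoxb9* on *Hottip* gRNA replicates 1 and 4, that of *Hoxb13* on replicate 1, and every detected spot of *Hoxb3* and *Hoxb4*. Without outlier spots no member was detected on all 4 *Hottip* gRNA arrays, and only *Hoxb7*, *Hoxb9* and *Hoxb13* were on at least 1. The probes of the other 5 members, *Hoxb1*, *Hoxb2*, *Hoxb5*, *Hoxb6* and *Hoxb8*, were detected on no array, although single spots of *Hoxb1* were on some. The looser flag, a signal significantly above background, gave more: 2 members on every control array and 4 on at least 1, against 3 and 7 on the *Hottip* gRNA arrays and likewise 3 and 7 on the arrays labelled *Hoxa13* gRNAs. By that flag the 2 guide pools did not differ in these counts.

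**Figure D1:**
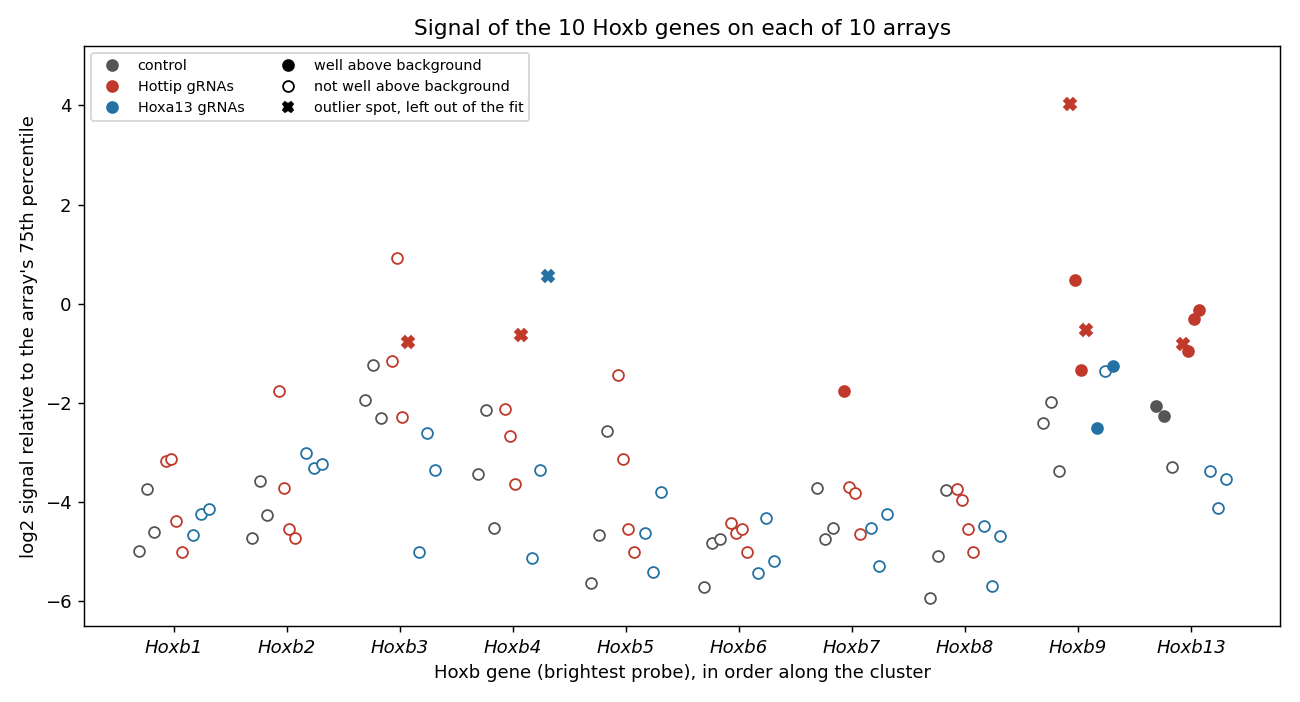
Level of each Hoxb gene (log2 signal relative to the array's 75th percentile, vertical axis) on each of the 10 arrays, with the genes in their order along the cluster and a point for each array, filled where the spot was well above background and crossed where it was an outlier spot. *Hoxb9* and *Hoxb13* are filled or crossed on all 4 *Hottip* gRNA arrays, and *Hoxb1*, *Hoxb2*, *Hoxb5*, *Hoxb6* and *Hoxb8* have no filled point.

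Along the cluster, with outlier spots counted, the members detected on every *Hottip* gRNA array were the last 2 in the posterior direction, *Hoxb9* and *Hoxb13*, while none from *Hoxb1* to *Hoxb8* was. Levels of different probes cannot be ranked against each other, so the order rests on detection and on differences between groups. Only these 2 of the 10 members passed the filter, and each needed the *Hottip* gRNA arrays to pass: without them each was detected on 2 arrays. A count over these 2 therefore says nothing for the cluster as a whole. The 8 others were measured but not tested, and their differences below are descriptions.

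Against control, no Hoxb gene was called in the *Hottip* gRNA arrays, while 0.718% of all probes tested were called, 164 of 22830. Without adjustment, 2 members and 1837 of all probes had p under 0.05. The 10 differences were all positive, from 0.44 for *Hoxb6* to 2.15 for *Hoxb9*, with a median of 0.68. This count of signs rested on the scaling: 9 were positive after quantile normalization, both normexp corrections and on the submitters' values, where *Hoxb6* was negative, and 6 after the local median was subtracted, where *Hoxb2*, *Hoxb3*, *Hoxb4* and *Hoxb7* were negative. The median over all probes tested was -0.03, but 8 of the 10 members were not tested. For them the median of 0.52 over the probes significant on no array is the nearer comparison. The values of *Hoxb1* (0.51), *Hoxb2* (0.51), *Hoxb4* (0.56), *Hoxb6* (0.44) and *Hoxb8* (0.61) lay inside the range of those probes, and those of *Hoxb3* (1.00), *Hoxb5* (0.75) and *Hoxb7* (0.84) above it. Of these 8, only *Hoxb1* and *Hoxb8* were themselves significant on no array. For the others that range is not a like comparison. The groups did not overlap for *Hoxb9* and *Hoxb13*, a pattern that 5.69% of all tested probes with at least 2 values in each group showed in this direction. Groups with fewer values separate more easily, and *Hoxb9* had 2 and *Hoxb13* 3 of the 4 *Hottip* gRNA values. The share is therefore not a like comparison for them.

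*Hoxb13*, the most posterior member, which acts in the tail bud and later in the prostate, had the clearest separation. Its level was -0.95, -0.31 and -0.12 on *Hottip* gRNA replicates 2, 3 and 4, and the spot on replicate 1 was an outlier spot that read -0.80. It was -2.05, -2.26 and -3.28 on the control arrays and -3.37, -4.11 and -3.52 on the arrays labelled *Hoxa13* gRNAs. The *Hottip* gRNA values were higher than all others, the spot left out included, and the arrays labelled *Hoxa13* gRNAs were lower than all control arrays. The signal was significant against background on all 10 arrays and well above it on 4 of 4 *Hottip* gRNA, 2 of 3 control and 0 of 3 arrays labelled *Hoxa13* gRNAs.

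The means of *Hoxb13* were -0.46 ± 0.43 (SD, n = 3) with *Hottip* gRNAs, -2.53 ± 0.66 (SD, n = 3) in control and -3.67 ± 0.39 (SD, n = 3) with the label *Hoxa13* gRNAs. *Hottip* gRNAs exceeded control by 2.07 (SE 0.46), 4.21-fold, which was not called (limma adjusted p = 0.0987, unadjusted p = 0.0011). An exact two-sided permutation test over the 3 and 3 arrays gave p = 0.1, the smallest that this number of arrays allows. The arrays labelled *Hoxa13* gRNAs stood below control by a difference of -1.13 (SE 0.46), also not called (limma adjusted p = 0.447), and control was at least 1.59-fold higher. In both comparisons the exact permutation p was 0.1, the smallest possible.

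Between the 2 guide pools *Hoxb13* was the single member called. It was 3.21 higher (SE 0.46) with *Hottip* gRNAs than on the arrays labelled *Hoxa13* gRNAs, a limma adjusted p of 0.0235. On this scale that is at least 6.70-fold, a bound given since the lower group had no array well above background. In this comparison 0.381% of all probes were called, 87 of 22825. Both comparisons of the *Hottip* gRNA arrays use the same 4 arrays, and the direction between the pools rests on arrays labelled *Hoxa13* gRNAs in which *Hoxa13* itself was not raised. The summed signal of the 8 ES cell markers was 139 to 301 with *Hottip* gRNAs, 305 to 499 on those arrays and 117 to 380 in control. Its part in the result was not tested. The call was lost without the filter on dim probes (limma adjusted p = 0.0554), with the slide as a block (3.06, adjusted p = 0.181) and on the arrays of 1 slide alone (3.06, adjusted p = 0.252). It was also lost after quantile normalization (3.13, adjusted p = 0.0795). Among arrays left out in turn, it was lost without the array labelled *Hoxa13* gRNA replicate 1 (3.36, limma adjusted p = 0.0630), replicate 2 (2.99, adjusted p = 0.107) or replicate 3 (3.28, adjusted p = 0.0725), and without *Hottip* gRNA replicate 3 (3.13, adjusted p = 0.0770) or replicate 4 (3.04, adjusted p = 0.0882). The difference was positive in all 27 alternatives, from 2.01 to 3.62.

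**Figure D2:**
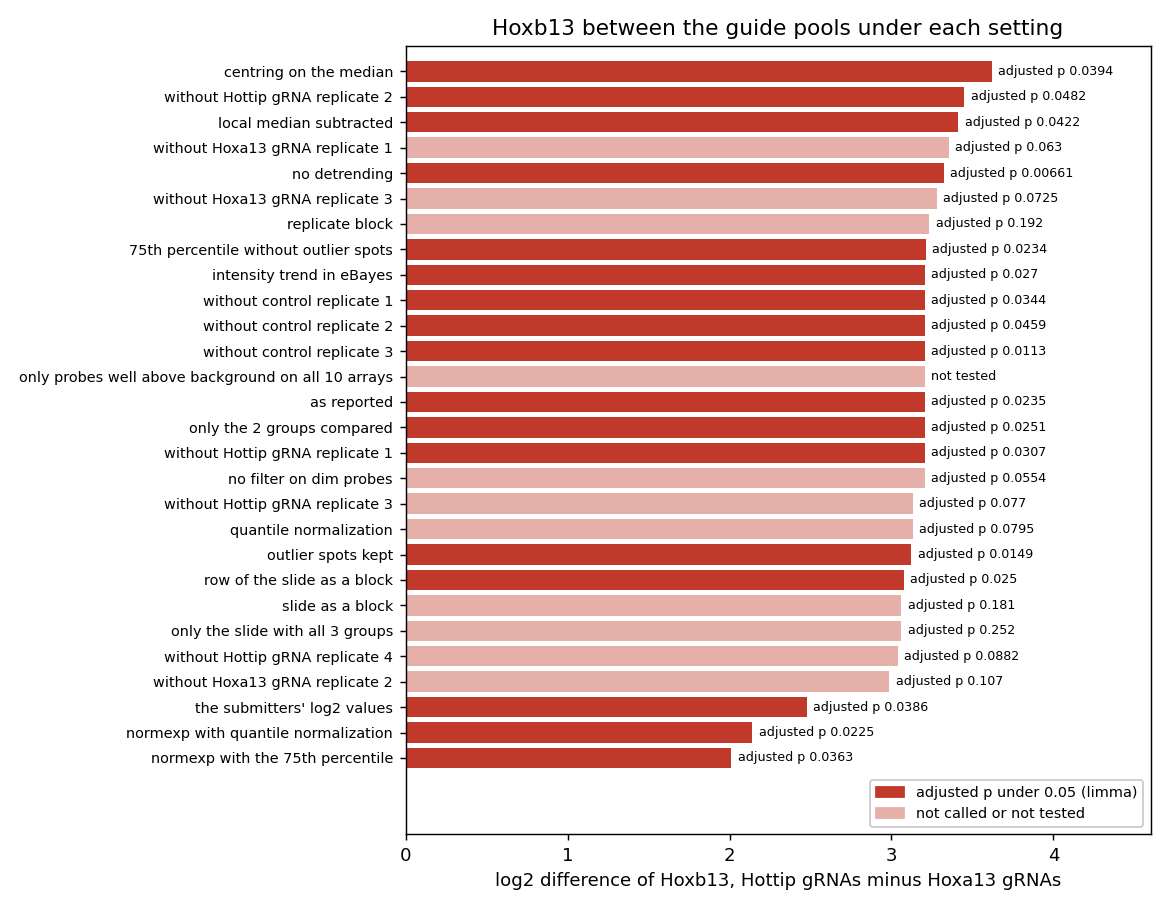
Difference of *Hoxb13* between *Hottip* gRNAs and the arrays labelled *Hoxa13* gRNAs (log2, horizontal axis) as reported and under the alternative settings, a bar for each setting and dark where limma called it. All bars lie between 2.01 and 3.62, and the adjusted p crosses the threshold in both directions, from 0.00661 to 0.252.

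The spot of *Hoxb13* lay in row 183 of 384, away from the edges of the array. In the area of 11 by 11 spots around it, the log2 brightness over the array's median was 0.84, -0.22, -0.14 and -0.44 on *Hottip* gRNA replicates 1 to 4, -0.0041, -0.47 and -0.33 on control, and 0.05, -0.14 and -0.12 on the arrays labelled *Hoxa13* gRNAs. The area was bright on *Hottip* gRNA replicate 1 alone, whose spot was left out. Over the arrays that entered the fit it differed by 0.0039 between *Hottip* gRNAs and control, beside 2.07 for the gene. After the local median was subtracted, the levels were 3.25, 4.03 and 4.88 on *Hottip* gRNA replicates 2, 3 and 4, against 2.11, 2.54 and 0.75 on control. On the submitters' own log2 values they were 9.86, 9.96 and 10.27 against 8.96, 8.68 and 7.58, with 7.72, 7.29 and 7.65 on the arrays labelled *Hoxa13* gRNAs. The order of the group means was the same on all of these scales, and the *Hottip* gRNA values did not overlap the others on any of them.

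*Hoxb9*, which patterns the thoracic skeleton, was detected on all 4 *Hottip* gRNA arrays, on replicates 1 and 3 of the arrays labelled *Hoxa13* gRNAs and on no control array. Its level was 0.48 and -1.34 on *Hottip* gRNA replicates 2 and 3, and the spots of replicates 1 and 4, which read 4.03 and -0.52, were outlier spots. Control stood at -2.41, -1.98 and -3.36, of which the -1.98 of replicate 2 is a substitute value for a spot not significant against background, and the arrays labelled *Hoxa13* gRNAs at -2.51, -1.35 and -1.25. The *Hottip* gRNA values were all above control, and replicate 3 overlapped the arrays labelled *Hoxa13* gRNAs.

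The means of *Hoxb9* were -0.43 ± 1.29 (SD, n = 2), -2.58 ± 0.71 (SD, n = 3) in control and -1.70 ± 0.70 (SD, n = 3) with the label *Hoxa13* gRNAs. *Hottip* gRNAs exceeded control by 2.15 (SE 0.70), which was not called (limma adjusted p = 0.376). On this scale and with these arrays that is at least 4.41-fold, a bound that does not cover the spread. An exact permutation test over the 2 and 3 arrays gave p = 0.1, the smallest possible. The difference was 1.25 without *Hottip* gRNA replicate 2 and 3.06 without replicate 3. The arrays labelled *Hoxa13* gRNAs exceeded control by 0.88 (limma adjusted p = 0.564, at least 1.83-fold), and *Hottip* gRNAs exceeded those arrays by 1.27 (limma adjusted p = 0.467).

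The *Hoxb9* spot lay in row 371 of 384, near the lower edge, where the *Hottip* gRNA arrays were bright. The brightness of the surrounding area was 1.54, 1.67, 2.37 and 3.08 on *Hottip* gRNA replicates 1 to 4, against 0.33, 0.59 and 0.47 on the control arrays. Over the arrays that entered the fit it differed by 1.55, beside the 2.15 of the gene. With the local median subtracted the difference of *Hoxb9* was 1.07. The software's correction for uneven brightness was applied to 8 arrays and not to *Hottip* gRNA replicates 3 and 4. On the uncorrected, background-subtracted signal *Hoxb9* read 4366, 539, 563 and 1793 on the *Hottip* gRNA arrays, against 80.6, 17.3 and 149 on control and 130, 93.9 and 249.7 on the arrays labelled *Hoxa13* gRNAs, and the difference from control was 3.03 (limma adjusted p = 0.0781). The part of local brightness in the *Hoxb9* values was not tested beyond these values.

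**Figure D3:**
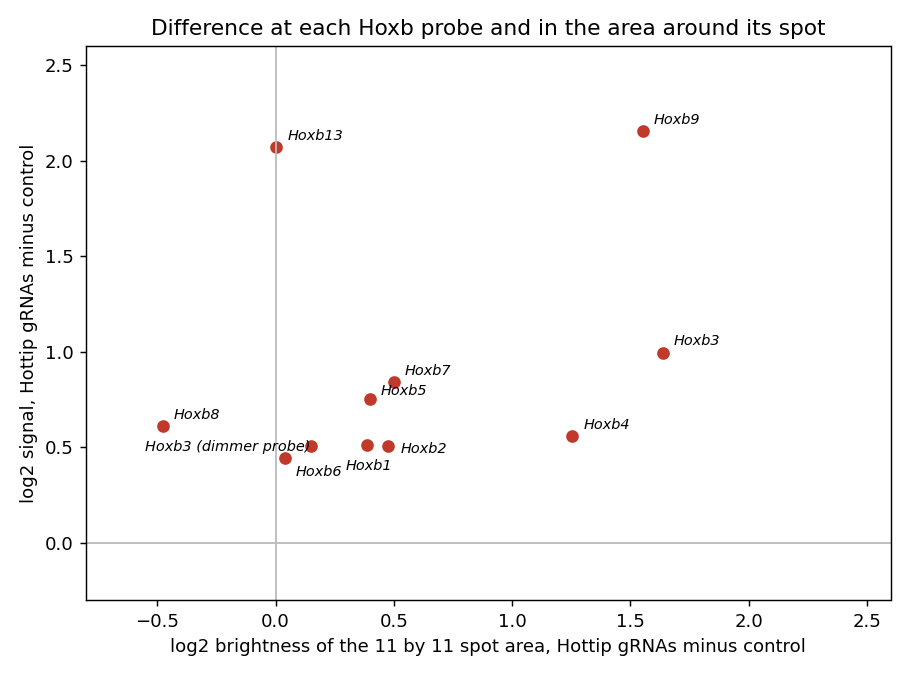
Difference between *Hottip* gRNAs and control of each Hoxb probe (log2 signal, vertical axis) against the same difference for the 11 by 11 spot area around it (log2 brightness, horizontal axis), a point for each of the 11 probes, both over the arrays without an outlier spot of that probe. *Hoxb9*, the brighter *Hoxb3* probe and *Hoxb4* stand at 1.55, 1.64 and 1.25 on the horizontal axis, while *Hoxb13* stands at 0.0039.

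*Hoxb3* and *Hoxb4*, which act in the hindbrain and neck region and, for *Hoxb4*, in blood stem cells, also lay on spots near the lower edge. The brighter *Hoxb3* probe stood at -1.15, 0.93 and -2.28 on *Hottip* gRNA replicates 1 to 3, with an outlier spot of -0.77 on replicate 4 that was the single spot of this probe well above background. Control stood at -1.95, -1.24 and -2.31 and the arrays labelled *Hoxa13* gRNAs at -5.00, -2.61 and -3.36. All 3 control values, that of *Hottip* gRNA replicate 1 and those of replicates 1 and 2 of the arrays labelled *Hoxa13* gRNAs were not significant against background and are substitute values. The difference between the pools, 2.82 (SE 0.84), was outside the filter and rests in part on such values, on arrays none of which was well above background. The dimmer *Hoxb3* probe, in another place on the array, gave -0.32 in that comparison and 0.51 for *Hottip* gRNAs against control, and was well above background on the array labelled *Hoxa13* gRNA replicate 2 alone. The 2 probes of *Hoxb3* thus disagree in sign between the pools. The local brightness around the brighter probe was 1.70 to 4.03 on the *Hottip* gRNA arrays and 0.02 to 0.89 on control, and its part in the result was not tested.

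*Hoxb4* was well above background on *Hottip* gRNA replicate 4 (-0.63) and on the array labelled *Hoxa13* gRNA replicate 3 (0.56), both outlier spots. The other values were -2.11, -2.66 and -3.63 with *Hottip* gRNAs, -5.12 and -3.35 with the label *Hoxa13* gRNAs and -3.42, -2.14 and -4.52 in control, and the groups overlapped. The area around the spot was brightest on the same 2 arrays, at 2.99 and 2.82, against -0.34 to 0.33 on control.

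*Hoxb7*, a gene of the trunk, was well above background on *Hottip* gRNA replicate 1 alone, at -1.75, where the area around its spot was 1.79 above the array's median. That area lay between -1.28 and -0.45 on all the remaining arrays. The remaining *Hottip* gRNA arrays stood at -3.70, -3.81 and -4.64, among the control values of -3.71, -4.73 and -4.51. Without replicate 1 the difference of *Hottip* gRNAs from control was 0.27 in place of 0.84, so that array sets most of the *Hoxb7* value.

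The anterior genes *Hoxb1* and *Hoxb2*, which pattern the hindbrain, and *Hoxb5*, *Hoxb6* and *Hoxb8*, trunk genes of which *Hoxb8* also acts in myeloid progenitors, had no probe detected on any array. *Hoxb1* had 10 spots, with at most 3 detected per array, and apart from 2 on *Hottip* gRNA replicate 2 those were all outlier spots. Its level ranged from -5.01 to -3.13 with *Hottip* gRNAs, from -4.98 to -3.74 in control and from -4.67 to -4.13 with the label *Hoxa13* gRNAs. *Hoxb5* read -1.43 on *Hottip* gRNA replicate 1, with all remaining arrays from -5.62 to -2.56, *Hoxb6* between -5.70 and -4.33 and *Hoxb8* between -5.93 and -3.74 on all 10. The ranges of the 3 groups overlapped for these 4 genes. *Hoxb2* was at -3.01, -3.31 and -3.23 on the arrays labelled *Hoxa13* gRNAs and at -4.72, -3.58 and -4.25 in control, a difference of 1.00 without overlap, and its signal was significant against background on all 6 of these arrays but well above it on none.

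On the arrays labelled *Hoxa13* gRNAs no Hoxb gene was called against control, where 0.175% of all probes were, 40 of 22830; 1 member, *Hoxb13*, and 2503 of all probes had an unadjusted p under 0.05. Of the 10 differences 4 were positive and 6 negative, from -1.83 for *Hoxb3* to 1.00 for *Hoxb2*, with a median of -0.18 beside 0.19 over all probes tested. This count of signs also rested on the scaling. After the local median was subtracted 1 was positive (median -0.55), and after the normexp correction with the 75th percentile 8 were (median 0.50). *Hoxb2* was the 1 member whose groups did not overlap with the labelled arrays higher, while 16.5% of all tested probes showed that pattern. *Hoxb13* and *Hoxb3* did not overlap with the labelled arrays lower, as 6.97% of all tested probes did, and the *Hoxb3* values are mostly substitutes. Between the pools, 9 of 10 differences were positive, all but *Hoxb2* (-0.49), with a median of 1.14, beside -0.26 over all probes tested and 0.43 over the probes significant on no array. With the normexp correction and the 75th percentile 6 of these differences were positive, with a median of 0.20. The groups did not overlap for *Hoxb13* with *Hottip* gRNAs higher, a pattern of 4.78% of all tested probes, nor for *Hoxb3*, where the values are undetected. Both genes had 3 of the 4 *Hottip* gRNA values, so that percentage is not a like comparison either. These 3 comparisons share their arrays, so their values stand side by side and are not separate evidence.

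Among paralogues of the 2 detected members, which share the homeobox type across clusters, *Hoxa13* was raised with *Hottip* gRNAs as given above and the others were not called. *Hoxd13* differed from control by -0.34 with *Hottip* gRNAs (limma adjusted p = 0.999) and *Hoxc13* by 0.36 (limma adjusted p = 0.997). *Hoxa9*, by the brighter of its 2 probes, was detected on all 10 arrays and differed by 0.48 (limma adjusted p = 0.997), while its other probe was detected on none. *Hoxc9* (0.74) and *Hoxd9* (-1.67) were outside the filter. The differences of *Hoxb13* and *Hoxb9* from these paralogues were not tested.

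**Figure D4:**
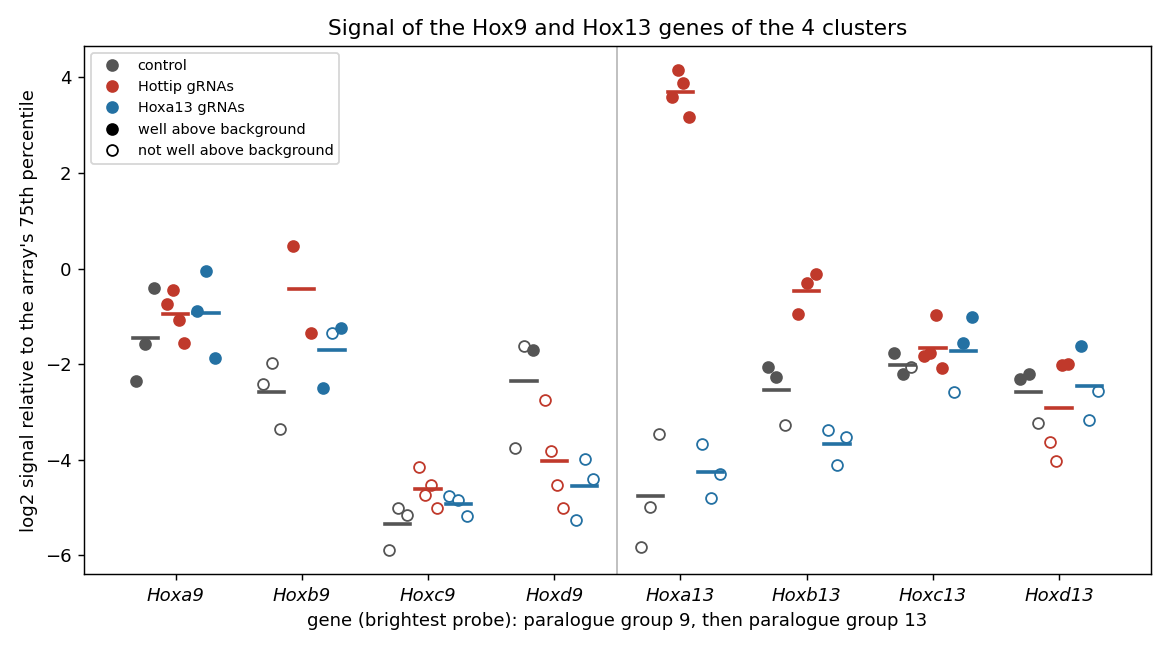
Level (log2 signal relative to the array's 75th percentile, vertical axis) of the group 9 and group 13 Hox genes of the 4 clusters on each array, a point for each array. Lines are group means, filled points are well above background, and outlier spots are not drawn. *Hoxb13* is above all control arrays on the 3 *Hottip* gRNA arrays drawn, *Hoxa13* is between 3.17 and 4.16 there, and the *Hoxc13* and *Hoxd13* groups overlap.

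The whole Hox complement places these values. With *Hottip* gRNAs against control, 2 of 11 Hoxa genes were called, *Hoxa13* and *Hoxa10* (3.41, limma adjusted p = 0.0017, at least 4.99-fold), with *Hoxa13* 8.47 higher, a median over the cluster of 0.41 and a lowest value of -0.95 (*Hoxa3*). *Hoxa11*, outside the filter, was 1.51 higher. No Hoxc gene (median 0.36, from -0.85 for *Hoxc10* to 1.25 for *Hoxc12*) and no Hoxd gene (median 0.19, from -1.67 for *Hoxd9* to 1.59 for *Hoxd10*) was called. Only 5 Hoxa, 1 Hoxc and 3 Hoxd genes passed the filter, and 7 of 9 Hoxc and 4 of 9 Hoxd genes were detected on no array, against 5 of 10 Hoxb and 4 of 11 Hoxa. *Hoxa13* and *Hoxa10* were detected on the 4 *Hottip* gRNA arrays alone and passed the filter through them. Against the arrays labelled *Hoxa13* gRNAs the medians on the reported scale were 0.27, 0.33 and 0.53 for Hoxa, Hoxc and Hoxd beside 1.14 for Hoxb. That of Hoxb was 0.20 with the normexp correction and the 75th percentile. *Hoxa13* (7.96) and *Hoxa10* (3.25) were called there besides *Hoxb13*. The lowest and highest values in that comparison were -0.43 for *Hoxa7*, -0.68 for *Hoxc10* and 0.85 for *Hoxc11*, and -0.47 for *Hoxd13* and 0.90 for *Hoxd1*, with *Hoxa11* at 1.22. No Hox gene was called between the arrays labelled *Hoxa13* gRNAs and control, where the highest Hoxa value was 0.51 (*Hoxa9*) and the values ran from -1.02 (*Hoxc11*) to 0.86 (*Hoxc12*) and from -2.19 (*Hoxd9*) to 0.70 (*Hoxd10*). The clusters were not tested against each other.

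**Figure D5:**
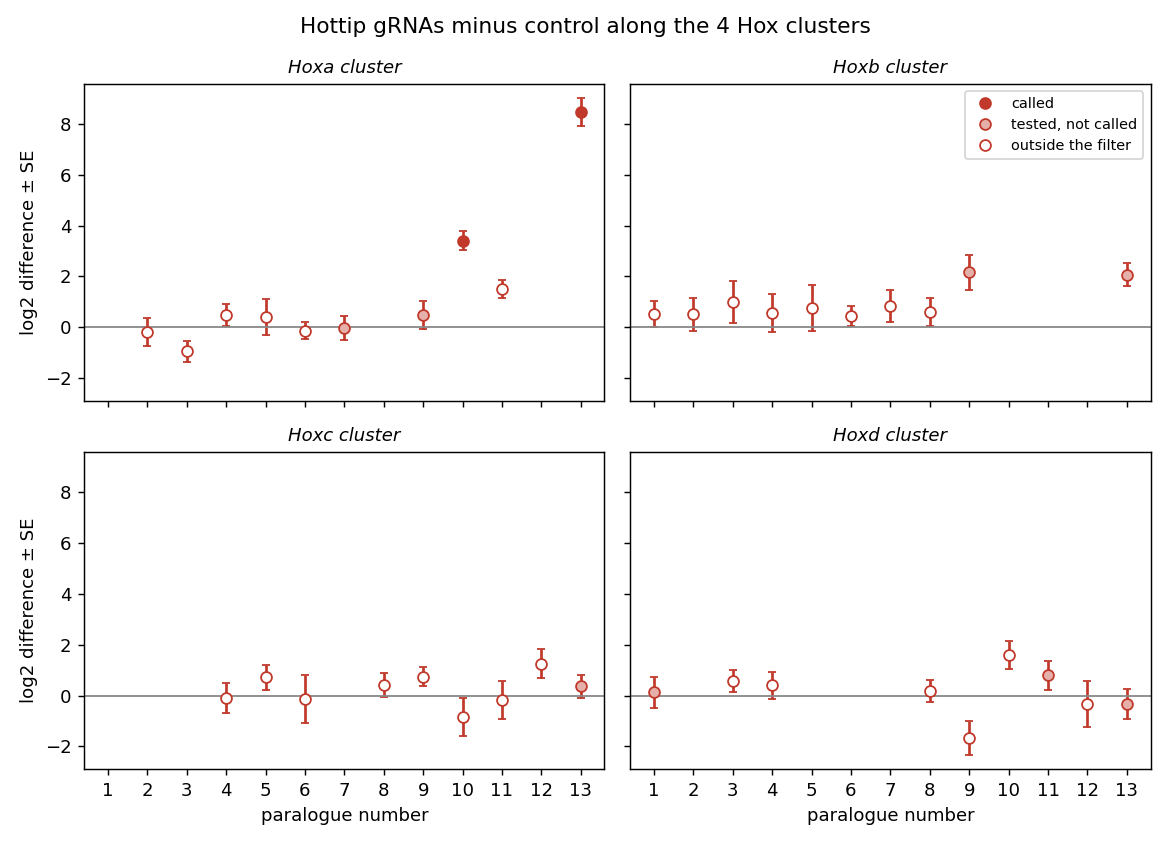
Difference of the Hox genes between *Hottip* gRNAs and control (log2, vertical axis, bars 1 SE) by its paralogue number, with a panel for each of the 4 clusters, dark points for genes called by limma, pale points for genes tested and open points for genes outside the filter (1 of the 11 Hoxa genes is not drawn). The Hoxb values lie between 0.44 and 2.15, and *Hoxa13* and *Hoxa10* at 8.47 and 3.41.

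Of the genes around the Hoxb cluster, 9 of 15 listed had a probe and 7 were tested, and none was called in any of the 3 comparisons. *Ttll6*, the next gene beyond *Hoxb13* and an enzyme that adds glutamate chains to tubulin, was 1.29 higher with *Hottip* gRNAs than in control (SE 0.43, limma adjusted p = 0.368, unadjusted p = 0.0126) and 1.31 higher than on the arrays labelled *Hoxa13* gRNAs (limma adjusted p = 0.292). *Calcoco2*, beyond it, which encodes an autophagy receptor, was 1.54 higher with *Hottip* gRNAs than in control (limma adjusted p = 0.436), and *Cbx1* marked the lower end at -0.93. *Atp5g1*, of the mitochondrial ATP synthase, was 0.98 higher on the arrays labelled *Hoxa13* gRNAs than in control (limma adjusted p = 0.448), with *Nfe2l1* lowest at -0.86, and between the pools it was lowest at -0.90. No probe matched *Hoxb3os*, *Hoxb5os*, *Mir10a*, *Mir196a-1*, *Prac1* or *Prac2*.

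Of 15 retinoid and caudal regulators of Hox genes, 13 were tested and 2 were called with *Hottip* gRNAs against control, both caudal factors and both higher. *Cdx2* stood at -0.10, 0.32, 0.59 and 0.46 on the *Hottip* gRNA arrays and at -3.85, -3.74 and -3.63 on the control arrays, 4.06 higher (SE 0.39, limma adjusted p = 0.00105, at least 13.3-fold). *Cdx1* was 3.46 higher (SE 0.43, limma adjusted p = 0.00393). Both were also higher than on the arrays labelled *Hoxa13* gRNAs, by 3.31 (limma adjusted p = 0.00679) and 2.79 (limma adjusted p = 0.0235), and neither was called between those arrays and control (0.75 and 0.68). *Cdx2* was detected on all 4 *Hottip* gRNA arrays, on 1 array labelled *Hoxa13* gRNAs and on no control array, so it needed the *Hottip* gRNA arrays to pass the filter. *Cdx4* was detected on no array. *Rara*, a retinoic acid receptor, was lowest of the list at -0.83 (limma adjusted p = 0.538) and also between the pools at -0.93 (limma adjusted p = 0.335), *Crabp1* was lowest at -0.89 on the arrays labelled *Hoxa13* gRNAs against control, and no retinoid gene was called. Over 28 settings *Cdx2* was called against control in 26 and *Cdx1* in 24. Between the pools *Cdx2* was called in 25 of them and *Cdx1* in only 11.

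Of 14 genes for repressors and activators of Hox chromatin, 13 had a probe, 12 were tested and none was called in any comparison, with 0 of 12 at an unadjusted p under 0.05 in each. Their differences with *Hottip* gRNAs against control ran from -0.74 for *Cbx7* to 1.07 for *Ezh2*, the methyltransferase of Polycomb complex 2, with a median of 0.01. They ran from -0.79 for *Ring1* to 1.03 for *Men1* on the arrays labelled *Hoxa13* gRNAs against control, and from -0.86 for *Psip1* to 0.74 for *Ring1* between the pools. *Ring1* was detected on no array and was not tested, so its values are descriptions of an undetected probe.

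Markers of other cell types also differed on the *Hottip* gRNA arrays. Of 4 trophoblast markers 2 were called against control, *Cdx2* and *Krt7* (3.14, limma adjusted p = 0.00684), while *Eomes* differed by 0.88 (limma adjusted p = 0.553) and *Elf5* was detected on no array. Both called markers needed the *Hottip* gRNA arrays to pass the filter. *Krt7* was detected on those 4 arrays alone, so its 3.14 is a difference from undetected values. The summed signal of the 4, in multiples of the 75th percentile, was 2.55 to 3.22 with *Hottip* gRNAs, 0.760 to 0.840 in control and 0.896 to 1.85 with the label *Hoxa13* gRNAs. Of 4 endoderm markers none was called, *Gata6* differed by 1.66 (limma adjusted p = 0.0929), and their sum was 4.22 to 7.75, 1.84 to 2.66 and 1.82 to 2.22. With *Hottip* gRNAs that sum was mostly *Gata6*, whose level was 1.78 to 2.80, while *Sox17*, *Foxa2* and *Gata4* were at -1.31 or lower. The 4 neural markers had negative differences without a call (*Sox1* -1.76, limma adjusted p = 0.121, and *Neurod1* -1.81, limma adjusted p = 0.199), and their sum was 1.95 to 8.25, 4.02 to 13.1 and 7.18 to 11.7. Mesoderm sums overlapped, and 3 of those 4 markers were detected on no array. No fibroblast marker was called, with 3 of the 4 higher and 1 lower than in control, from -1.61 for *Col1a1* to 1.40 for *Col3a1*. Of the higher markers, *Pdgfrb* was detected on no array. *Col1a1* stood at 1.00 on control replicate 3, at -3.91 and -3.44 on control replicates 1 and 2 and between -4.54 and -3.20 with *Hottip* gRNAs. *Col3a1* stood at 2.68 on *Hottip* gRNA replicate 4 and between -2.73 and -2.32 on the remaining *Hottip* gRNA arrays. *Thy1* was 0.76 higher than in control (limma adjusted p = 0.602).

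The ES cell markers differed most on the arrays labelled *Hoxa13* gRNAs. All 8 were higher there than in control, with a median of 0.97 and none called, and 3 had an unadjusted p under 0.05, *Nanog* (1.74, limma adjusted p = 0.340), *Esrrb* (1.33, limma adjusted p = 0.435) and *Pou5f1* (1.18, limma adjusted p = 0.452). Between the pools 7 of 8 were lower with *Hottip* gRNAs, with a median of -0.78, none called and *Nanog* lowest at -1.19 (limma adjusted p = 0.336). Their summed signal was 139 to 301 with *Hottip* gRNAs, 117 to 380 in control and 305 to 499 with the label *Hoxa13* gRNAs. The pools did not overlap in it, but 301 and 305 nearly touch and the control range reaches into both. Like the other marker sums, it includes outlier spots, which were left out of the fit. Between the pools *Krt7* was 2.06 (limma adjusted p = 0.0928), *Gata6* 1.84 (limma adjusted p = 0.0811) and *Thy1* 0.92 (limma adjusted p = 0.336) higher with *Hottip* gRNAs, and *Sox1* (-1.89, limma adjusted p = 0.106), *Neurod1* (-2.53, limma adjusted p = 0.105) and *Col1a1* (-2.53, limma adjusted p = 0.358) were lower, none of them called. *Krt7* was 1.09 higher on the arrays labelled *Hoxa13* gRNAs than in control (limma adjusted p = 0.447). The part of these cells in the *Hoxb9* and *Hoxb13* values was not tested, and in RNA from a mixed culture fewer cells of a type and less RNA per cell cannot be told apart.

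The genes whose level ran most like a member over the arrays were sought among 6373 probes. These had a gene symbol, belonged to other genes and were detected on all 10 arrays. Over the 9 arrays with a value, *Hoxb13* was most like *Plekhh1* (Pearson r 0.978), *Gipc2* (0.964), *Gm4303* (0.957), *Serinc5* (0.946) and *Gata6* (0.939), where the 99th percentile of all r was 0.795. Over 8 arrays *Hoxb9* was most like *Fadd* (0.905), *Arid1a* (0.899), *Arpc5* (0.870), *Uqcc1* (0.841) and *Grtp1* (0.838), with a 99th percentile of 0.695. The arrays share group, slide and scale, so these values describe likeness and no more.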

How the data were processed

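RNA of 10 mouse ES cell samples was hybridised to 1-colour Agilent arrays. The authors extracted spot intensity with Feature Extraction 11.5.1.1 per the file headers, with detection and outlier flags, and deposited a table of log2 values for which the labels name limma; by rank it equals median signal minus local background. All its columns mapped to samples (0 did not).

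Here the processed intensity was taken to log2 minus the 75th percentile of each array; outlier spots were left out, spots of a probe averaged, and probes well above background on at least 3 arrays tested (limma 3.58.1, R 4.3.3, Benjamini-Hochberg). Single values were compared by exact permutation. The script was tested on simulated data. The number of arrays limits the precision, and replicates are biological per the labels. A fold against a group not well above background is a lower bound. It takes, on each array of that group, the level or the dimmest detected probe, whichever is higher. Such a bound holds for the reported scale and arrays only and does not cover the spread, so other settings can fall below it. The members and gene lists were chosen with earlier results of these data known. All members were named; genes of the other Hox clusters, neighbours, regulators and chromatin genes where called, at an unadjusted p under 0.05 or at the ends of the list. Cell type markers are given by counts and sums, and those named were chosen after their values were seen. Genes outside the Hoxb cluster are likewise given by the probe with the highest mean signal. Microarray probe sequences were not used here. Gene order came from a RefSeq table. The target sites of the *Hoxa13* guides and the values of 1 Hoxa gene are not reported here.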

Additional observations from a re-analysis of the deposited data

Results flagged for a closer look

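The effects of the 2 guide pools on *Hoxb13*, each against the same 3 control arrays, differed: *Hottip* gRNAs stood 2.07 above control and the arrays labelled *Hoxa13* gRNAs at -1.13, a difference of effects of 3.21 (SE 0.46, limma adjusted p = 0.0235), in which the control arrays cancel. Within the *Hottip* gRNA arrays, the 1 group of 4, the spread singled out no array for any of the 7 probes with 4 values. *Hoxb4*, *Hoxb9*, *Hoxb13* and the brighter *Hoxb3* probe, which had outlier spots there, and the groups of 3 arrays were not examined in this way.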

How the results depend on the processing

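The count of Hoxb genes called between the guide pools was 1 as reported. It was 0 with quantile normalization, with no filter on dim probes, with only probes well above background on all 10 arrays (where *Hoxb13* was not tested), with the slide as a block, on the 1 slide with all 3 groups and with the replicate block (*Hoxb13* 3.23, limma adjusted p = 0.192). Leaving out 1 array gave 0 to 1 called genes and a *Hoxb13* difference from 2.99 to 3.45 (limma adjusted p 0.0113 to 0.107). In the other 2 comparisons no Hoxb gene was called under any alternative run: for *Hottip* gRNAs against control, *Hoxb13* lay between 1.46 and 2.56 (limma adjusted p 0.0734 to 0.479) and *Hoxb9* between 1.07 and 3.25 (limma adjusted p 0.0781 to 1.0), and for the arrays labelled *Hoxa13* gRNAs against control *Hoxb13* lay between -1.51 and -0.47. Replicate numbers did not pair the arrays: deviations of the 9 same-number pairs correlated between -0.31 and 0.08. With the looser detection flag, 2, 3 and 3 members were detected on every array of the control, of *Hottip* gRNAs and of the label *Hoxa13* gRNAs, and 4, 7 and 7 on at least 1. Settings chosen after seeing the data were outlier spots kept, no correction for uneven brightness and a 75th percentile without outlier spots; the cause of the lost calls was not tested. Centring on the median moved the median of all tested probes for *Hottip* gRNAs against control from -0.03 to 0.22. Over all probes the calls of the 3 comparisons were 164, 40 and 87 as reported, 14, 2 and 8 with the replicate block, 5, 0 and 0 with only probes well above background on all 10 arrays, and 120, 8 and 33 with the percentile taken without outlier spots. With 3 or 4 arrays a group, most members were too dim to be tested.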
